A study of Mus musculus with 13 samples.

Results

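The Siglech locus was followed through 5 regions of open chromatin in mouse microglia, all 5 of the peaks that the deposited annotation assigns to Siglech among 38620 peaks in the table. One peak lies on the promoter and 4 lie upstream of it, in what the annotation calls distal intergenic sequence. Siglech was chosen by its measured fall in accessibility at a distal peak and over the summed locus after lipopolysaccharide (LPS, a bacterial cell wall component that drives inflammation), with a promoter that had not fallen in the vehicle arm. At Siglech, comparisons of LPS with PBS are therefore given as descriptions without a p-value, and tests are given only for other contrasts. Most of these other contrasts share libraries with the ones that chose the gene, so they are not independent of the choice.

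Siglec-H, the product of Siglech, is a sialic acid-binding lectin on the cell surface that lacks signalling motifs of its own and works through the adaptor DAP12 (gene Tyrobp). In the brain it is used as a marker of microglia, the resident macrophages, and elsewhere it marks plasmacytoid dendritic cells. ATAC-seq counts fragments released by a transposase from accessible DNA, so a higher count at a peak means that more fragments were recovered there, not that more of the gene's RNA was made.

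The study asked whether microglia keep a trace of an earlier LPS exposure once they have been depleted and have grown back. Male C57BL/6J mice received a first injection at 10 weeks of age and a second one 5 weeks later, and microglia were taken 3 hours after the second. Between the injections, 1 week after the first, mice were given either the CSF1R inhibitor BLZ945 (169 mg/kg per day for 5 days), which depletes microglia, or its vehicle. The first letter of each group name is the first injection, a B in the middle marks BLZ945, and the last letter is the second injection, with P for PBS and L for LPS at 1 mg/kg. PP (PBS, vehicle, PBS), PBP (PBS, BLZ945, PBS), PL (PBS, vehicle, LPS), LL (LPS, vehicle, LPS) and LBL (LPS, BLZ945, LPS) each had 2 libraries, and PBL (PBS, BLZ945, LPS) had 3. Each library was a pool from 2 animals with 40000 sorted cells from each, so animals within a pool cannot be separated. Library names carry pairs of numbers, and PBL 3_4 and PBL 4_5 have the number 4 in common, and no label says if 1 animal went into both.

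Library totals ran from 927840 to 2772688 counts, lowest in the 2 PP libraries. A chi-square of counts between libraries of 1 group was 0.978 to 1.15 per degree of freedom in every group other than PL, where it was 1.84. The share of counts on promoter peaks was 53.2% in PL 3_4 and 55.5% to 60.1% in the others, so calls that use PL are given without PL 3_4 where that changes them. PP, PBP and PL were sorted on one instrument and PBL, LL and LBL on another. PBL, LL and LBL each had an isolation day of their own, and for them day and group cannot be told apart. The sort kept cells high in CD11b, intermediate in CD45 and negative for Ly6C. Levels are given in CPM, the counts in a library scaled to a common total of all peaks, with a scaling factor (TMM) applied to each library. Of 8 microglia markers, 7 had peaks (Fcrls had none). Their summed level was 1064 to 1307 CPM in PBS libraries and 916 to 1135 CPM in LPS libraries. Of 10 genes typical of plasmacytoid dendritic cells, 7 had peaks, with 657 to 698 CPM in PBS and 662 to 800 CPM in LPS libraries, and Ly6d, Klk1 and Cd209d had none. For border macrophages 5 of 8 had peaks (143 to 183 and 167 to 237 CPM; none at Lyve1, Pf4 and Cd209f), for monocytes 3 of 6 (120 to 143 and 136 to 179 CPM; Ly6c2 and Chil3 had none), and for neutrophils 3 of 6 (35.5 to 55.6 and 36.4 to 52.5 CPM; none at S100a8, Ly6g and Retnlg). A sum over marker genes is not a share of cells, and whether these peaks are also open in other cell types was not checked. The part of these levels in the Siglech results was not tested, and in bulk libraries fewer cells of a type and less signal per cell cannot be told apart.

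The promoter peak spans chr7:55767894-55768465 (572 bp, GRCm38/mm10) and covers the start site of Siglech, which lies on the plus strand. Its sequence is shown because the promoter differed from the distal sum under LPS in the vehicle arm. The RefSeq promoter table (GRCm38.p6) was used for the 220 bases before the first annotated RefSeq start, chr7:55767934-55768153 on the plus strand, all inside the peak. Capitals mark the letters that matched a searched motif.

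Siglech promoter: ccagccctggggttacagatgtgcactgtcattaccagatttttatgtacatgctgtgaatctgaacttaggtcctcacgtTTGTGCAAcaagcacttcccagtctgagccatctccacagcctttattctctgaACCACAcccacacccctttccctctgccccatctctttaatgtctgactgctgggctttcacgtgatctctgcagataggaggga

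The motifs below were searched on both strands, and no matches overlapped. The C/EBP-type motif TTGCNNAA matched once, on the minus strand 169 bases before the table's start site, and 8.78% of 32851 promoter stretches of the same length held it. The RUNX-type motif TGTGGT matched once, on the minus strand 115 bases before the start site, and 12.7% of stretches held it. The PU.1-type GAGGAA, the AP-1-type TGANTCA, the IRF-type GAAANNGAA and the NF-kB-type GGGANTTCC had no match here, and 20.4%, 6.12%, 6.29% and 1.1% of stretches held them. The stretch holds 2 CpG dinucleotides and is 49.5% G or C, against a median of 51.8% over all stretches. A match is a stretch of letters, not a bound site.

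The 4 distal peaks all lie before the start site, named here by their distance to it as deposited. The peak at -2457 bp is at chr7:55765296-55765721 (426 bp), the peak at -22969 bp at chr7:55744255-55745209 (955 bp), the peak at -30272 bp at chr7:55737569-55737906 (338 bp) and the peak at -56966 bp at chr7:55710924-55711212 (289 bp). Per kb of peak, the mean level over 13 libraries was 56.3 CPM at the promoter, 41.2 at -2457 bp, 32.5 at -56966 bp, 31.0 at -30272 bp and 24.9 at -22969 bp. The promoter peak was thus the most accessible per length, yet it sat at the 47.6th percentile of all promoter peaks in CPM, while the broad peak at -22969 bp sat at the 78.1st percentile of non-promoter peaks. All 5 passed the filter on low counts, with 8 to 100 counts in a library. The lowest, 8 counts at -56966 bp in LBL 1_2, has an exact 95% Poisson interval of 3.45 to 15.8 counts, which covers counting error only. Below, the distal sum is the 3 peaks within 50 kb of the start site, so it leaves out the peak at -56966 bp, and the promoter sum is the single promoter peak.

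**Figure D1:**
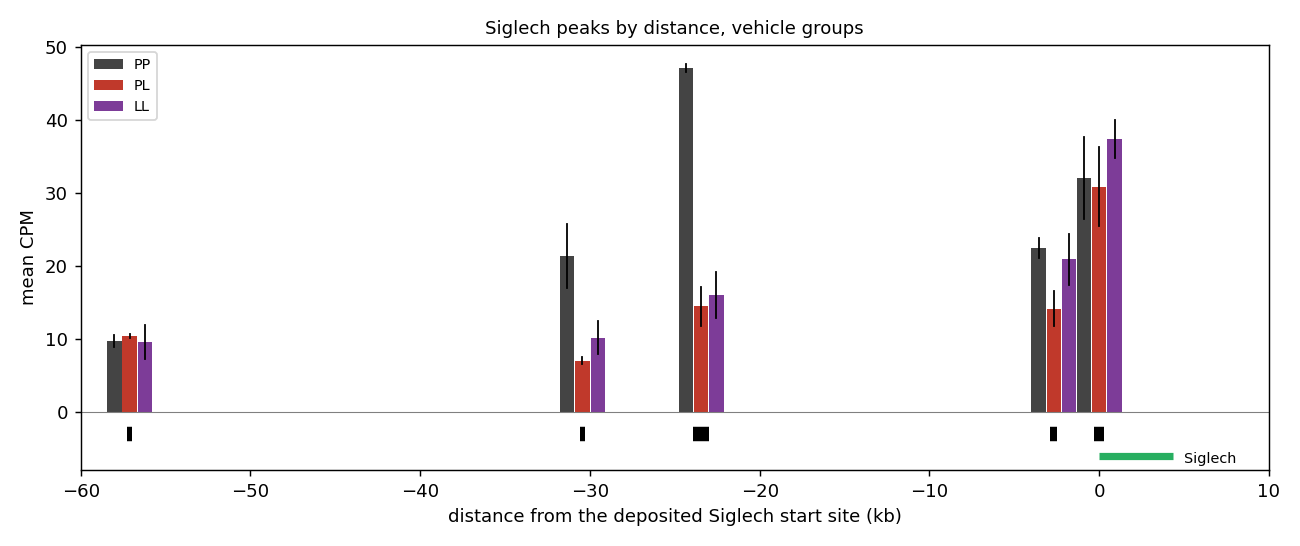
Mean CPM (bars) of the 5 Siglech peaks in the vehicle groups PP, PL and LL, against distance from the deposited start site in kb; thin lines span the 2 libraries of a group, bars are wider than the peaks, and black blocks show the peaks to scale above the gene (green). The peak at -22969 bp stands at 47.1 CPM in PP and at 14.5 CPM in PL, while the promoter stands at 32.1 and 30.9 CPM.

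Under LPS the distal part of the locus was lower in both arms, and most at the peak 22969 bp upstream. That peak was at 46.6 and 47.7 CPM in the PP libraries and at 17.2 and 11.7 CPM in PL, and after BLZ945 at 36.4 and 48.3 CPM in PBP against 15.4, 9.18 and 11.0 CPM in PBL. Every LPS library lay below every PBS library, LL (12.9 and 19.2 CPM) and LBL (14.9 and 18.1 CPM) included. The log2 difference was -1.71 ± 0.26 (SE) for PL against PP and -1.87 ± 0.23 for PBL against PBP. After LPS given for the second time it was -1.52 ± 0.25 for LL against PP and -1.32 ± 0.24 for LBL against PBP. In the peak table (37539 tested peaks, called at an adjusted p under 0.05) 2.7% were lower in PL than in PP, 3.26% in PBL than in PBP, 2.06% in LL than in PP and 0.916% in LBL than in PBP. Nothing is read from these shares, since LPS against PBS chose the gene.

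The promoter peak did not move with it in the vehicle arm. PP stood at 26.5 and 37.7 CPM and PL at 25.5 and 36.3 CPM, with overlapping libraries and a log2 difference of -0.05 ± 0.25. In the BLZ945 arm the promoter was lower under LPS as well. PBP stood at 41.3 and 52.1 CPM, the highest of the groups, and PBL at 16.8, 22.0 and 23.4 CPM, the lowest, a log2 difference of -1.11 ± 0.20. The promoter was thus near its PBS level in the vehicle arm and below it in the BLZ945 arm. For mice given LPS both times, the promoter difference was 0.22 ± 0.23 for LL against PP and -0.57 ± 0.21 for LBL against PBP.

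The other distal peaks each had a pattern of their own. At -2457 bp, the nearest, PP stood at 21.2 and 23.8 CPM and PL at 16.6 and 11.7 CPM, and PBP at 21.3 and 21.1 CPM against 11.2, 9.18 and 13.2 CPM in PBL. The groups did not overlap in either arm, and the log2 differences were -0.68 ± 0.31 and -0.90 ± 0.26. This peak was close to its PBS level in mice given LPS both times, with 17.4 and 24.4 CPM in LL and 20.7 and 16.1 CPM in LBL.

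At -30272 bp, PP stood at 16.9 and 25.8 CPM, above all other libraries, which lay between 6.43 and 12.4 CPM. Its log2 difference was -1.61 ± 0.36 for PL against PP and -0.12 ± 0.34 for PBL against PBP, where PBP was already at 9.11 and 9.06 CPM without LPS. At -56966 bp levels were low throughout, from 5.18 to 13.6 CPM. There the difference was 0.09 ± 0.41 for PL against PP and -0.77 ± 0.32 for PBL against PBP. The peak at -22969 bp was the only one of the 5 in which both arms differed by more than 1 log2 unit.

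Summed over the 3 distal peaks within 50 kb, PP stood at 84.7 and 97.4 CPM, PBP at 66.8 and 78.5, PL at 40.3 and 31.0, and PBL at 35.0, 24.8 and 34.1. The 4 libraries of mice without LPS all lay above the 9 with it. Of 8140 distal sums tested, 2.44% were called lower in PL than in PP and 5.64% in PBL than in PBP. The log2 difference was -1.36 ± 0.19 for PL against PP and -1.21 ± 0.16 for PBL against PBP. By group mean the order of the distal sum was PP (91.0 ± 8.95 CPM, SD), PBP (72.7 ± 8.29), LL (47.2 ± 12.6), LBL (43.0 ± 2.37), PL (35.6 ± 6.60) and PBL (31.3 ± 5.64; n = 3, otherwise n = 2). Neighbours in that order overlapped from LL to LBL and from PL to PBL. The order of the promoter was PBP (46.7 ± 7.64 CPM), LL (37.4 ± 3.69), PP (32.1 ± 7.98), PL (30.9 ± 7.65), LBL (30.9 ± 3.37) and PBL (20.8 ± 3.51), and LL, PP, PL and LBL overlapped in turn.

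**Figure D2:**
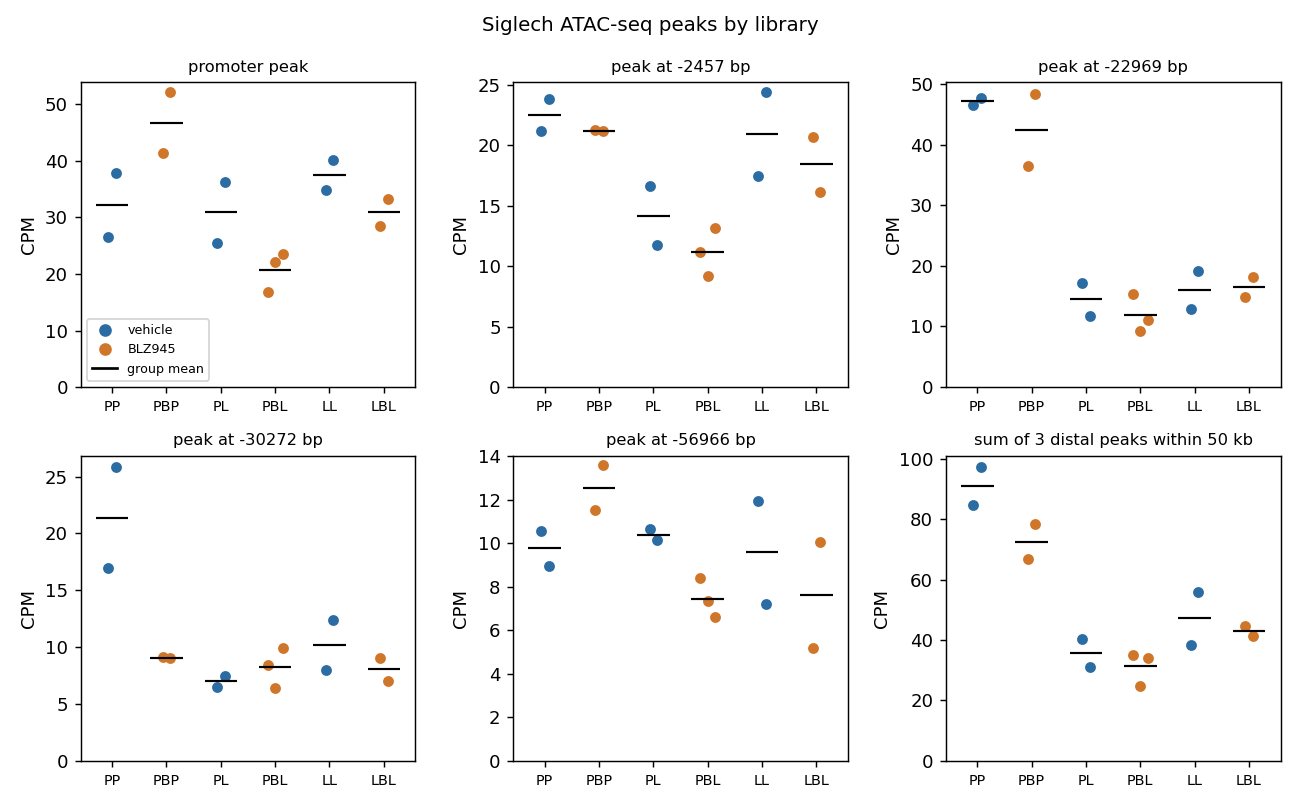
CPM of each Siglech peak and of the distal sum in every library (points), by group, with the group mean as a line; blue is vehicle and orange BLZ945. The 4 PBS libraries (PP, PBP) lie above the 9 LPS libraries at -22969 bp, whereas at the promoter PP and PL overlap and PBL is lowest.

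PBL and PBP were sorted on different instruments and days, so in the BLZ945 arm the LPS difference cannot be told apart from those. PL and PP were sorted on the same instrument, and PL 3_4 shared its isolation day with PP. The promoter difference in the vehicle arm depended on the libraries used. It was -0.34 without PL 3_4 and 0.23 without PP 3_4, on either side of 0. With isolation day in the model it was 0.17 ± 0.26, and the distal sum was -1.56 ± 0.22. The day term is set by the gap between PL 1_2 and PL 3_4 alone, so these values in effect compare PL 3_4 with PP.

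The promoter response to LPS in the BLZ945 arm minus that in the vehicle arm was -1.06 ± 0.31 on the log2 scale. It holds the promoter difference between PL and PP, which chose the gene, and the arms also differ in sorter and day, so no test is given. With 1 library left out it ran from -1.34 (without PP 3_4) to -0.77 (without PL 3_4). For the distal sum the difference between arms was 0.15 ± 0.25, and at -30272 bp it was 1.49 ± 0.49.

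Mice given LPS for the second time (repeated LPS, LL and LBL) had more distal accessibility at Siglech than mice given LPS once (single LPS, PL and PBL), by a call that several libraries could undo. No isolation day was shared between the repeated and single LPS groups, and in the vehicle arm the sorter differed too. Differences between repeated and single LPS cannot be told apart from those. Over both arms together the distal sum rose by 0.45 ± 0.13 on the log2 scale (edgeR quasi-likelihood test, adjusted p = 0.0256), with 38.3 and 56.1 CPM in LL against 40.3 and 31.0 in PL, and 44.7 and 41.3 CPM in LBL against 24.8 to 35.0 in PBL. LBL lay above PBL in every library, whereas LL and PL overlapped. Of all distal sums 1.78% were called higher over both arms, and 3.35% were called in either direction in LBL against PBL. The distal sum remained below its PBS level: the difference was -0.93 ± 0.17 for LL against PP and -0.75 ± 0.18 for LBL against PBP.

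Among single peaks the one at -2457 bp rose by 0.64 ± 0.19 (adjusted p = 0.0383), 1 of 5 Siglech peaks, where 1.07% of all tested peaks were called higher. By limma and by DESeq2 no Siglech peak was called in this contrast. The call at -2457 bp was lost without PL 3_4 (0.52, adjusted p = 0.148), and also without PBL 1_2, PBL 3_4, LL 3_4, LBL 1_2 or LBL 3_4. The groups did not overlap at -2457 bp in either arm. The difference there was 0.59 ± 0.26 for LL against PL (adjusted p = 0.531, with 0.0639% of peaks called) and 0.68 ± 0.26 for LBL against PBL (adjusted p = 0.169, with 1.9% of peaks called). The promoter peak was at 34.8 and 40.1 CPM in LL and 28.5 and 33.3 CPM in LBL, a difference of 0.41 ± 0.14 that did not pass (adjusted p = 0.114). Without PL 3_4 it passed (0.55, adjusted p = 0.0330). The peak at -22969 bp, which differed most under LPS, was 0.37 ± 0.19 apart (adjusted p = 0.380; 95% interval -0.01 to 0.75). The peaks at -30272 bp (0.25 ± 0.25, adjusted p = 0.724) and -56966 bp (-0.01 ± 0.24, adjusted p = 0.988) did not pass either.

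Neither arm alone passed for the distal sum. The difference was 0.44 ± 0.18 for LL against PL (adjusted p = 0.444), which crosses sorters, and 0.46 ± 0.18 for LBL against PBL (adjusted p = 0.145), which were sorted on one instrument on different days. The vehicle value was 0.11 without LL 3_4 and 0.66 without LL 1_2. The arms differed by 0.03 ± 0.25 (adjusted p = 0.993; 95% interval -0.48 to 0.53). The call over both arms is lost without PL 3_4, PBL 3_4, LL 3_4, LBL 1_2 or LBL 3_4, and is smallest without LL 3_4 (0.28, adjusted p = 0.378). PL and PBL also chose the gene for its low level there, which by itself makes this difference larger. The locus sum, the promoter peak and the 3 distal peaks together, passed over both arms (0.43 ± 0.10, edgeR adjusted p = 0.00698). There 0.655% of all loci were called higher. It passed narrowly for LBL against PBL (0.50 ± 0.14, adjusted p = 0.0495) and not for LL against PL (0.36 ± 0.14, adjusted p = 0.533). The summed locus chose the gene too, and it was not refitted with libraries left out.

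**Figure D3:**
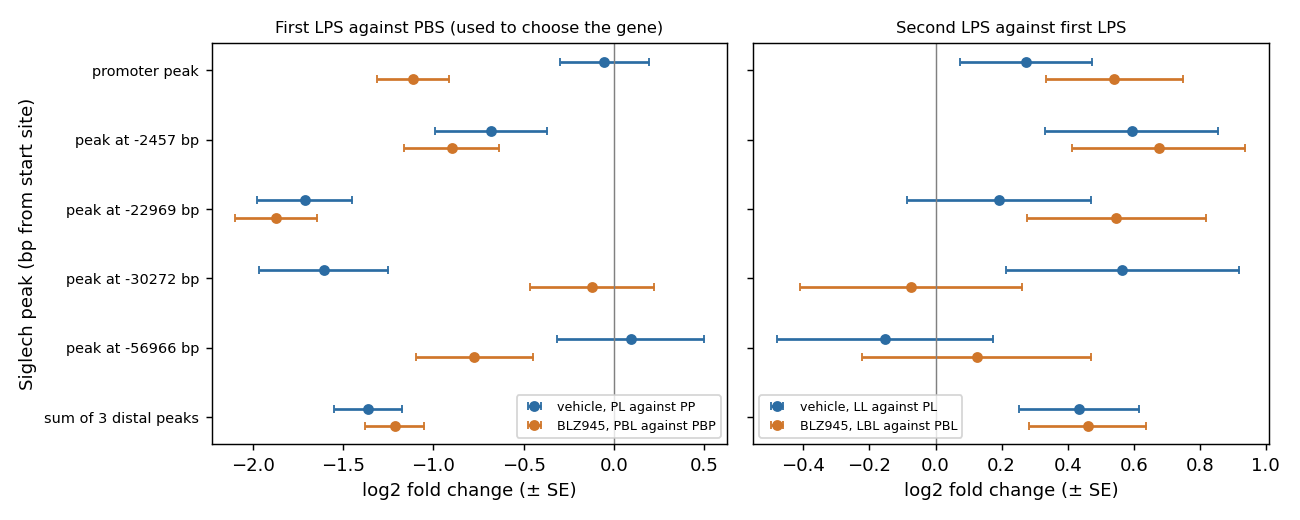
Log2 fold change ± SE of each Siglech peak and of the distal sum, for LPS against PBS (left, used to choose the gene and not tested) and for repeated against single LPS (right), in the vehicle (blue) and BLZ945 (orange) arms. At left the promoter sits at -0.05 in the vehicle arm and -1.11 in the BLZ945 arm; at right the distal sum sits at 0.44 and 0.46.

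BLZ945 itself gave no called change at any Siglech peak by edgeR or limma, in the mean over schedules or within one. DESeq2 called none either, but gave no adjusted p for 2 of 5 peaks in the mean and for 3 of 5 without LPS. At an unadjusted p under 0.05 in edgeR, 1 of 5 peaks passed in the mean, 2 without LPS, 1 with LPS given once and 0 with repeated LPS. Over the 3 injection schedules together the promoter peak was at -0.10 ± 0.12 (adjusted p = 0.841; 95% interval -0.35 to 0.15) and the distal sum at -0.23 ± 0.10 (adjusted p = 0.333; 95% interval -0.43 to -0.03), BLZ945 minus vehicle. In that contrast 0.405% of peaks were called. The PP, PL, PBP and PBL libraries also hold the LPS differences that chose the gene, so BLZ945 differences that use them are not independent of that choice. Without LPS the largest difference was at -30272 bp, where PBP lay below PP by -1.24 ± 0.35 (adjusted p = 0.126), while the promoter lay above by 0.52 ± 0.24 (adjusted p = 0.451); of all peaks, 0.157% were called. The groups did not overlap at either peak, nor for the distal sum, at -0.34 ± 0.17 (adjusted p = 0.503, with 0.0614% of distal sums called). PBP and PP were isolated on different days, with the PL libraries split between them. With day in the model the promoter difference was 1.02 ± 0.37 (adjusted p = 0.115) and the distal sum -0.72 ± 0.31 (adjusted p = 0.190). That day term is the gap between PL 1_2 and PL 3_4 alone (25.5 and 36.3 CPM at the promoter). These values therefore rest on those libraries and do not separate day from group. With 1 library left out and no day term, the promoter difference ran from 0.29 to 0.80. With LPS given once the promoter was lower after BLZ945, 16.8 to 23.4 CPM against 25.5 and 36.3 CPM, at -0.54 ± 0.21 (adjusted p = 0.282, with 0.0826% of peaks called). PBL and PL differ in sorter and day, so this difference, and its part in the mean over schedules, cannot be told apart from those. With repeated LPS the promoter was at -0.27 ± 0.20 (adjusted p = 0.780, with 0.0533% of peaks called), in groups isolated on different days.

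The balance between distal and promoter counts was measured within each library, where total depth cancels. The log2 ratio of the distal sum to the promoter count was 1.68 and 1.37 in PP, above every other library. It was 0.69 and 0.59 in PBP, 0.66 and -0.23 in PL, and 1.06, 0.17 and 0.54 in PBL. LL gave 0.14 and 0.49, and LBL 0.65 and 0.31. Only in PL 3_4 did the promoter hold more counts than the 3 distal peaks together. PBP ratios lay inside the range of the LPS libraries, and PP alone stood apart. The gap between PP and PL chose the gene, so the high place of PP is not read as a result. The 2 exact tests that follow also use libraries that chose the gene, and are not independent of that choice. Between repeated and single LPS the ratio differed by -0.01 (exact permutation test within arms, two-sided p = 1, 60 arrangements, smallest possible p 0.0167). Between BLZ945 and vehicle it differed by -0.11 (exact permutation test within schedules, two-sided p = 0.65, 360 arrangements), and both adjusted p over these 2 exact tests were 1.

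**Figure D4:**
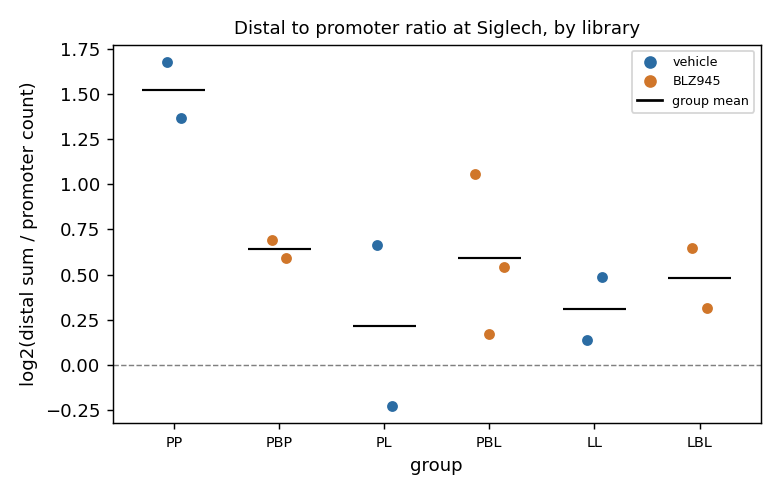
Log2 ratio of the distal sum to the promoter count in every library (points), with group means as lines; the dashed line marks equal counts. The 2 PP libraries lie at 1.37 and 1.68, above all others, which lie between -0.23 and 1.06. The gap between PP and PL chose the gene.

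Across the 5259 genes with both a tested promoter sum and a tested distal sum, the distal minus promoter log2 difference under LPS had a median of 0.19 in the vehicle arm (PL against PP). Siglech stood at -1.31 there, a low place that the choice of the gene fixed and from which nothing is read. In the BLZ945 arm (PBL against PBP) the median was 0.04 and Siglech stood at -0.10. Genes near the bottom in both arms included Pik3r4, a regulatory subunit of a class III phosphoinositide kinase (-2.18 and -1.79), Cetn4, a centrin (-1.95 and -1.85), and Mt2, a metallothionein (-1.43 and -2.15). At Cetn4 and Mt2 the promoter was higher under LPS, by 1.76 and 0.98 in the vehicle arm, whereas at Pik3r4 the distal sum was lower by -2.07.

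**Figure D5:**
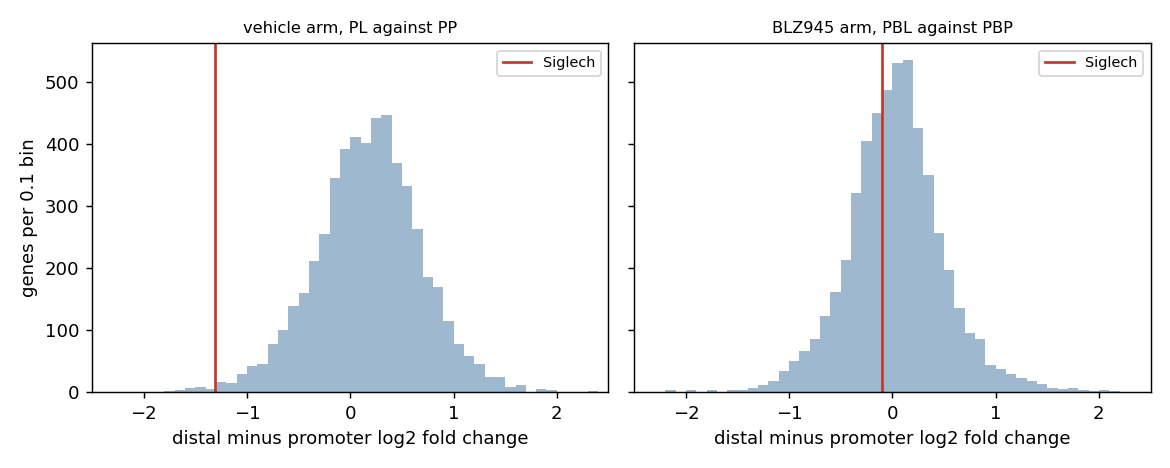
Distribution over 5259 genes of the distal minus promoter log2 fold change under LPS, in bins 0.1 wide, for the vehicle arm (left) and the BLZ945 arm (right), with Siglech as a red line. Siglech stands at -1.31 at left, a gap that chose the gene, and at -0.10 at right.

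The Siglech peaks stand alone on their upstream side. No other peak lies within 250 kb before the farthest one, and the nearest, at Svip, is 3704387 bp away. After the promoter, the next peak begins 15884 bp on, near Tubgcp5, which encodes a component of the gamma-tubulin complex. The 20 other peaks within 250 kb belong to Tubgcp5, Cyfip1 (a regulator of actin assembly and translation) and A230056P14Rik. By edgeR none was called lower in PL or in PBL against PBS, with 1 and 3 lower at an unadjusted p under 0.05, where 2.7% and 3.26% of all peaks were called lower. There 2 were called higher in PL (4.8% of all peaks) and 1 in PBL (6.69%). Between repeated and single LPS none was called, with 4 at an unadjusted p under 0.05, where 2.45% of all peaks were called.

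The 13 libraries were also used to name the loci whose summed level followed the Siglech distal sum most closely, as a description, since all values share library depth and the same LPS groups. Of 13732 loci the highest Pearson r were at Mir7028 (0.952), a microRNA gene, Rgs10 (0.95), a regulator of G protein signalling, Cux2 (0.935), a homeodomain factor, Ech1 (0.932), an enzyme of fatty acid oxidation, Umodl1 (0.929), Ypel2 (0.929), Plxdc2 (0.929) and Dnmt3a (0.926), a DNA methyltransferase. By Spearman's rho 3 of these 8 stayed among the top 8. Umodl1 went from 30.9 CPM in PP to 12.5 in PL and 16.5 in LL, and Rgs10 from 294 to 220 and 243 CPM. Among the Siglech peaks themselves, r with the promoter was 0.66 at -2457 bp, 0.53 at -22969 bp, 0.48 at -56966 bp and 0.22 at -30272 bp, and r between -22969 bp and -2457 bp was 0.74.

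Other genes of the family did not follow Siglech under LPS. Of 8 Siglec genes tested as summed loci, 3 were called higher and none lower in PL against PP (edgeR; 4 higher and 0 lower at an unadjusted p under 0.05), where 5.41% of all loci were called higher and 5.25% lower. Siglece, an inhibitory Siglec, rose by 0.80 ± 0.18 (adjusted p = 0.00136), Siglecf by 0.52 ± 0.16 (adjusted p = 0.0269) and Cd33 by 0.47 ± 0.13 (adjusted p = 0.0103). In PBL against PBP 2 of 8 were called higher and none lower (2 and 0 unadjusted), where 5.11% of all loci were higher and 2.53% lower. They were Siglece at 0.54 ± 0.15 (adjusted p = 0.0116) and Cd33 at 0.35 ± 0.11 (adjusted p = 0.0267). The list's median log2 difference was 0.47 and 0.12, against -0.05 and -0.01 over all loci. Between repeated and single LPS, 1 of 8 was called higher and none lower (1 and 0 unadjusted), where 0.655% of loci were higher and 0.939% lower. It was Siglecg, which restrains B cell receptor signalling, at 0.43 ± 0.11 (adjusted p = 0.0165).

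Of 22 genes of DAP12 signalling, the pathway Siglec-H signals through, 4 were called higher and 2 lower in PL against PP (5.41% and 5.25% of all loci), with a median of 0.07 against -0.05 over all loci. Trem1, an activating receptor that pairs with DAP12, rose by 1.48 ± 0.40 (adjusted p = 0.00876), and Clec5a, another DAP12 partner, by 0.86 ± 0.22 (adjusted p = 0.00630). The kinases Fyn and Lyn rose by 0.38 ± 0.12 and 0.27 ± 0.09 (adjusted p = 0.0229 and 0.0408). The phosphatases Ptpn11 and Inpp5d fell, at -0.77 ± 0.21 and -0.27 ± 0.08 (adjusted p = 0.00956 and 0.0221). In PBL against PBP, 2 were called higher (Trem1 at 1.97 ± 0.29, Fyn at 0.42 ± 0.09) and 1 lower (Inpp5d at -0.23 ± 0.07), where 5.11% and 2.53% of all loci were called, with a median of 0.10 against -0.01. Between repeated and single LPS 1 of 22 was called, the phospholipase Plcg2, higher by 0.29 ± 0.06 (adjusted p = 0.00130), where 0.655% of all loci were called higher.

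Of 31 tested genes of a homeostatic microglia list, 5 were called lower and 3 higher in PL against PP (10 and 6 unadjusted). In PBL against PBP 11 were called lower and 1 higher (14 and 2 unadjusted). Of all loci, 5.25% were called lower and 5.41% higher in PL against PP, and 2.53% and 5.11% in PBL against PBP. The list's medians were -0.04 and -0.18, against -0.05 and -0.01 over all loci. Cd33, named above among the Siglec genes, is also in this list and was called higher in both arms. Gpr34, a lysophosphatidylserine receptor, fell by 0.90 ± 0.24 and by 1.55 ± 0.19 on the log2 scale (adjusted p = 0.00766 and 1.7e-09), and Mertk, a receptor for engulfing dead cells, by 0.83 ± 0.11 and 0.53 ± 0.09 (adjusted p = 2.8e-08 and 1.3e-05). Between repeated and single LPS 6 of 31 were called higher and none lower (14 and 0 unadjusted; 0.655% and 0.939% of all loci), with a median of 0.12 against -0.03 over all loci. Among them Mertk rose by 0.46 ± 0.07 (adjusted p = 2.2e-06) and Selplg, a selectin ligand, by 0.39 ± 0.08 (adjusted p = 0.00228). Gpr34 rose by 0.56 ± 0.15 (adjusted p = 0.0298), and Crybb1 and Sparc were also called.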

How the data were processed

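The authors deposited one table of estimated counts per peak for 13 libraries, in steps of 0.5. No label or header names the counter. Among the tools in the submitters' processing notes are Bowtie2 2.2.6, MACS2 2.1.1, HOMER 4.9.1 and ChIPseeker 1.38, in no stated order. Groups come from the library labels, and sorter and day from the deposited metadata. Values were rounded to whole numbers and fitted with edgeR 4.0.16 (R 4.3.3; TMM factors, filterByExpr with a minimum count of 10, quasi-likelihood test, 6 group means), leaving 37539 of 38620 peaks. Sums per gene (promoter; distal within 50 kb; whole locus) were fitted likewise with the peak table's depth, and p-values were adjusted by Benjamini-Hochberg over each table and contrast. CPM here is the rounded count scaled to the total of all peaks in the library multiplied by its TMM factor. The fit was tested on simulated data with changes larger than those called at Siglech between repeated and single LPS, so changes of that size were not covered. Genes named are Siglech, the 8 loci most like its distal sum, the leading genes in both arms for the distal-promoter gap, and called list members. The members, lists and tests were chosen with earlier results of these data known. The difference between arms in the LPS response was planned as a test and is given without a p, since it holds the contrast that chose Siglech. Labels name separate pools. In the peak fit the spread had 7 residual degrees of freedom from the pools and 151 prior ones drawn from all tested peaks. The SE and p-values therefore rest mostly on a spread shared over peaks, not on that between the Siglech pools. Alternatives were DESeq2 1.42.0, limma 3.58.1, other scalings, filters, thinning, blocks and left-out libraries. Some members of the gene lists enter the counts and sums but are not reported here by name.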

Additional observations from a re-analysis of the deposited data

Results flagged for a closer look

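The promoter peak and the peak at -56966 bp of Siglech differed in opposite directions between BLZ945 and vehicle in different LPS schedules, with libraries that did not overlap. With so few libraries in a group, lack of overlap carries little weight, and its share over all peaks is not given. PBL and PL were sorted on different instruments and days, and PBP and PP on different days. The change between schedules cannot be told apart from those. The promoter peak was at 0.52 for PBP minus PP, at -0.54 for PBL minus PL and at -0.27 for LBL minus LL on the log2 scale. The difference between the first 2 is the same contrast as the difference between arms in the LPS response, -1.06 ± 0.31, and it was not tested because it holds the contrast that chose the gene. The difference between the first and the LBL minus LL value was not tested either. The more distant peak was at 0.35 for PBP minus PP and at -0.51 for PBL minus PL, and that difference, -0.86 ± 0.51, was not tested for the same reason.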

How the results depend on the processing

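Names of results follow the report, in log2 units. For the distal sum, repeated against single LPS over both arms (0.45, adjusted p = 0.0256), the direction held under all 21 alternatives and the call under 11. The call was lost with TMM factors from promoter peaks (0.47, adjusted p = 0.0572), with counts thinned to the smallest total (0.37, 0.326), with distal peaks at any distance (0.36, 0.0530), in limma (0.42, 0.0703) and in DESeq2 (0.45, 0.361). With 1 library left out it ran from 0.28 to 0.55. The peak at -2457 bp kept its call under 9 of 19 alternatives and its direction under 19. The promoter sum passed in that contrast once peaks within 3 kb counted as promoter, which adds the peak at -2457 bp (0.49, adjusted p = 0.0227).

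Replicate numbers 1_2 and 3_4 recur across groups, and correlations of the 1_2 minus 3_4 differences over 15 pairs of groups ran from -0.02 to 0.17, with 1 over 0.1. Outside PL, libraries of a group differed little beyond counting noise. These correlations therefore cannot show whether libraries of the same number shared handling. With the replicate block the distal sum, repeated against single LPS, was 0.50 (adjusted p = 0.0101). The difference between arms in the promoter-sum response to LPS was -0.77 once peaks within 3 kb counted as promoter. Leaving out 1 library, it ran from -1.35 to -0.77, and the promoter sum for PBL against PL from -0.76 (adjusted p = 0.0230, without PL 1_2) to -0.25.

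The other ranges with 1 library left out crossed 0 or moved by more than the replicate spread. For the promoter sum they were -0.025 to 0.48 (repeated against single LPS, BLZ945 arm minus vehicle arm), -0.34 to 0.23 (PL against PP) and -0.00383 to 0.51 (LL against PP). For the distal sum they were -0.37 to 0.00607 (PBL against PL), -0.39 to 0.16 (LBL against LL), -1.26 to -0.71 (LL against PP), -0.035 to 0.34 (LPS response, BLZ945 arm minus vehicle arm) and -0.21 to 0.34 (repeated against single LPS, BLZ945 arm minus vehicle arm). The ratio ran from -0.23 to 0.22 (repeated against single LPS) and -0.26 to 0.036 (BLZ945 against vehicle). The former was also 0.020 with unrounded values and 0.056 without the peak at -22969 bp. The last distal difference between arms was -0.092 after thinning, and the one in the LPS response was -0.22 with peaks within 10 kb. Within 10 kb only the peak at -2457 bp is left, and the distal sum was -0.68 (PL against PP), -0.90 (PBL against PBP), -0.085 (LL against PP) and -0.22 (LBL against PBP). Causes not named here were not tested, a day term was fitted only among PP, PBP and PL, and other loci were not refitted. Counts of 8 to 100 per peak and library limit the precision.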
